A study of Mus musculus with 15 samples.

Results

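Chemokine receptors are the surface proteins by which T cells sense chemokines, and the mRNA of 9 of them was followed here in T helper cells that lacked or carried the energy sensor AMPKα1. The members were taken by mouse gene symbol and were Ccr1, Ccr2, Ccr4, Ccr7, Ccr8, Ccr10, Cxcr4, Cxcr6 and Cx3cr1, 9 of the 55421 genes counted. Donor mice were C57BL/6 and homozygous for floxed Prkaa1, the gene of AMPKα1, without Cre in the group called WT (PRKAA1fl/fl) and with CD4-Cre in the group called KO. Naive donor T cells (CD4+CD25-CD44-CD62L+) were injected into Rag2-/- recipients, a model of colitis driven by transferred T cells. After 6 weeks donor cells were sorted from spleens and from mesenteric lymph nodes (mLN). In this model the study reports weight loss and heavy T cell infiltration with WT cells. With KO cells it reports stable weight, fewer T cells and mild inflammation. Genotype and severity of disease thus differed together, and their parts in the receptor values cannot be told apart. All mice were used at 6 to 8 weeks of age, and WT and KO were littermates. CD4-Cre acts from the thymocyte stage on, so recombination in KO donor cells precedes the transfer, and the recipients have no T or B cells of their own but keep their myeloid and NK cells. There were 4 samples each of WT spleen, KO spleen and KO mLN and 3 of WT mLN (numbers 1, 2 and 4), since 1 library had failed the quality control of the study.

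Each of these receptors is a protein that crosses the membrane repeatedly and signals through an inhibitory G protein, and the chemokine gradient that it reads steers the cell. Ccr7 responds to chemokines of lymph node stroma and keeps naive and central memory T cells in lymphoid tissue. Ccr1, Ccr2, Cxcr6 and Cx3cr1 are known from effector T cells that enter inflamed tissue, and Ccr1, Ccr2 and Cx3cr1 are also abundant on monocytes. Ccr4 and Ccr8 are known from Th2 cells, regulatory T cells and skin-homing cells, Ccr10 from cells that home to skin and mucosa, and Cxcr4 from the retention of leukocytes in bone marrow.

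Of the 9 genes, 6 lay on chromosome 9 of GRCm38 and 2 on chromosome 11, and Cxcr4 lay on chromosome 1. Cxcr6 (chr9:123806475-123811760), Ccr1 (chr9:123962124-123968692) and Ccr2 (chr9:124101950-124113557) were among those on chromosome 9. Ccr4 (chr9:114490316-114504916), Ccr8 (chr9:120092114-120094906) and Cx3cr1 (chr9:119901616-120069879) were the others there, while Ccr7 (chr11:99144196-99155077) and Ccr10 (chr11:101172997-101175443) were the pair on chromosome 11 and Cxcr4 spanned chr1:128588199-128592293. Cxcr6 lies within Fyco1, on the opposite strand and with 0 shared exon bases, and Cx3cr1 shares 78 exon bases with the antisense gene Gm33858, which had 13 to 67 counts per sample beside 132 to 1003 for Cx3cr1. The counted strand is not given in the sources used here, so reads of such pairs cannot be assigned with certainty, and reads that aligned to several places were left out, which touches the near copies Ccr1 and Ccr2.

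The 250 bases before the RefSeq start of 3 genes are shown because Ccr2 was the receptor called between genotypes and because Ccr4 and Ccr8 were called higher in mLN than in spleen T cells of KO mice together with Ccr7. The sequences are from RefSeq on GRCm38.p6 and run 5′ to 3′ on the strand of the gene, at chr9:124101933-124102182 (plus strand), chr9:114496545-114496794 (minus strand) and chr9:120091883-120092132 (plus strand). Capitals mark the letters AGATAA known from motifs of GATA factors, the letters TGGAAA known from NFAT, and the letters CACCC known from Krüppel-like factors, each searched on both strands.
Ccr2: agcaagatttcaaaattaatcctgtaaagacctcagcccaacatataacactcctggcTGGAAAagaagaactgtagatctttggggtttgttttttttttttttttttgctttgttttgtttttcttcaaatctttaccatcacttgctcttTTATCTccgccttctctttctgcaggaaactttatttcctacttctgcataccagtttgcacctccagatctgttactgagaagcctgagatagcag
Ccr4: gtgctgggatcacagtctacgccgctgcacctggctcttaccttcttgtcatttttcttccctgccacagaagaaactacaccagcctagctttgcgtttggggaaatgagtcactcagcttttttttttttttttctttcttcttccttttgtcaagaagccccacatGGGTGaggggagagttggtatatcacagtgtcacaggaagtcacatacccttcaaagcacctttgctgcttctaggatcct
Ccr8: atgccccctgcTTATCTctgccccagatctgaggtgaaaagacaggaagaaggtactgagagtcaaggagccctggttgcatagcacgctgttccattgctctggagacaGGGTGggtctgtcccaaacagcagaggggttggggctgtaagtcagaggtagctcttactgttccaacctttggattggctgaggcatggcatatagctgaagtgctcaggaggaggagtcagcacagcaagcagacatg
In the table used, 7 members had an entry, with Ccr7 and Ccr10 not among them. AGATAA was present in 2 of the 7, at position −97 from the start for Ccr2 and −239 for Ccr8, and in 11.4% of the 27025 promoters of that length. TGGAAA was present in 3 of 7 members and 20.9% of promoters, and CACCC in 4 of 7 and 54.5%. TGTGGT, known from RUNX factors, was present in 3 of 7 (15.9% of promoters). GTAAACA, known from FOXO factors, was present in 0 of 7 (3.54% of promoters), as was TCACAC, known from T-box factors (13.9% of promoters). Matches of different motifs were counted independently of any overlap. They describe letters in these windows only. The RefSeq start lies inside the longer interval given above for all 3 printed genes, so that the whole Ccr4 window and most of the Ccr2 window, with both of its marked motifs, lie within that interval.

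Reads counted on genes ranged from 9363940 to 11283439 per sample, and levels are given as counts per 1000000 of these reads (CPM). Prkaa1, the targeted gene, was at 46.3 to 60.9 CPM in the WT samples and 18.4 to 32.2 CPM in the KO samples, and no KO sample reached a WT sample. In KO its mean was 20.1 CPM in spleen and 27.7 CPM in mLN (log2 fold change 0.46, adjusted p = 0.0361 in edgeR). With 1 sample left out that adjusted p was 0.0098 to 0.0979. The part of this difference in the receptor values was not tested. The 11 T cell markers were detected in every sample and summed to 8219 to 10946 CPM, while 6 markers of B and plasma cells summed to at most 8.52 CPM. The 11 markers of monocytes and macrophages summed to 53.9 to 437 CPM and the 6 of neutrophils to 16.5 to 475 CPM, so RNA of other cells was present in the sorted samples. The 4 NK markers, of which Eomes gave the most reads and is also known from T cells, summed to 49.9 to 71.2 CPM in WT against 89.0 to 105 CPM in KO spleen, and to 42.3 to 57.5 against 72.9 to 122 CPM in mLN. In bulk samples such as these, fewer cells with a receptor and less receptor RNA per cell cannot be told apart.

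Cxcr6, the receptor of the membrane-bound chemokine Cxcl16, was by far the most abundant member. Per kb of exon it stood at 735 ± 306 CPM in WT spleen and 481 ± 90.9 CPM in KO spleen (SD, n = 4 each), and at 604 ± 192 CPM in WT mLN (SD, n = 3) and 471 ± 130 CPM in KO mLN (SD, n = 4). In every group its lowest sample lay above the highest sample of the next receptor. Cxcr6 alone made up 53.7% to 75.8% of the summed CPM of the members in a sample, and Cxcr6 and Ccr2 together 75.2% to 94.4%.

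Per kb of exon, the order of the other receptors differed between the organs. In spleen Ccr2 came second, at 75.0 ± 13.8 CPM per kb in WT against 47.6 ± 4.53 CPM per kb in KO (SD, n = 4 each), above every sample of Ccr8 and Ccr7, which overlapped each other. In mLN Ccr7 came second, at 86.0 ± 44.9 CPM per kb (SD, n = 3) for WT against 50.2 ± 6.36 CPM per kb (SD, n = 4) for KO, and overlapped Ccr2, which itself overlapped Ccr8. This place of Ccr7 rests on the exon lengths, 6760 bases for Ccr2 and 1978 for Ccr7. In CPM alone the mean of Ccr2 stayed above that of Ccr7 in mLN, at 447 against 170 in WT and 295 against 99.2 in KO. Ccr4 and Cx3cr1 followed at group means between 5.90 and 18.0 CPM per kb, and Ccr1 and Cxcr4 stood between 1.42 and 3.03 CPM per kb in all groups without being distinct from each other.

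**Figure D1:**
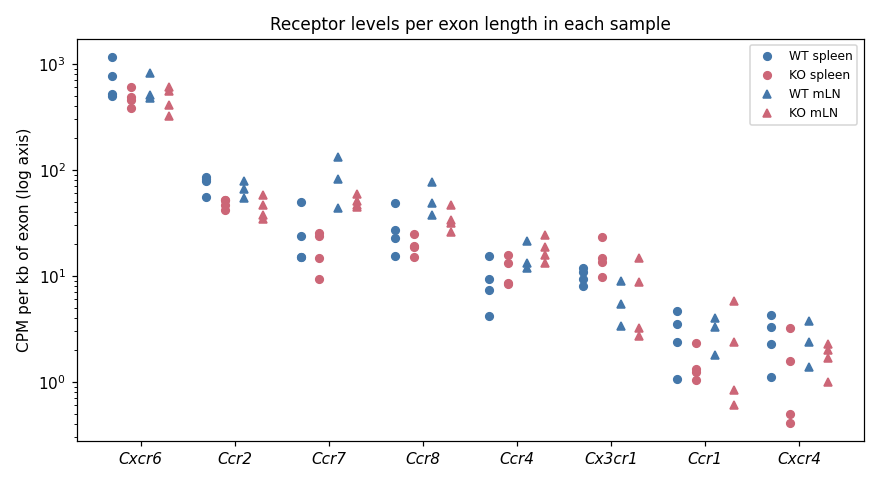
Level of 8 receptors in each sample in CPM per kb of exon (vertical log axis), with receptors ordered by their median and 1 point per sample, WT in blue, KO in red, spleen as circles and mLN as triangles. Cxcr6 stands between 322 and 1153, above all others, and Ccr7 moves up beside Ccr2 in mLN. Ccr10, with samples at 0, is left out.

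Ccr10 was nearly absent. Its counts were 0, 4, 0 and 28 in WT spleen, 1, 0, 0 and 2 in KO spleen, 0 in all 3 WT mLN samples, and 0, 0, 0 and 9 in KO mLN. It was at or under the floor of 3 counts in 12 of 15 samples, a limit that covers counting error only, and it did not pass the filter on low counts in any comparison. The other 8 receptors were tested in each comparison, so counts below are out of 8.

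Loss of AMPKα1 was compared with WT in spleen T cells first. Ccr2, the receptor of inflammatory monocyte chemokines and a marker of effector T cells that enter tissue, was lower in KO. Its levels were 532, 553, 370 and 573 CPM in the WT and 346, 347, 312 and 283 CPM in the KO samples. The groups did not overlap, and WT replicate 3 was the lowest WT sample, close to the KO samples. This was a 1.56-fold lower level, with a log2 fold change of −0.64 (standard error, SE, 0.12) and an adjusted p of 0.0444 in edgeR's quasi-likelihood test.

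Ccr2 was thus 1 of 8 receptors past the threshold in spleen, in the lower direction, in which 0.751% of the 14254 genes tested passed (1.3% in either direction, 0.547% higher). The KO samples all lay below the WT samples for 1 of 8 receptors and 6.31% of all genes, and above them for 0 of 8 receptors and 5.68% of genes. The call was close to the limit. With 1 sample left out the adjusted p of Ccr2 was 0.00252 without WT spleen replicate 3 and 0.0677 to 0.121 without any of the other 7 (log2 fold changes −0.67 to −0.58), and with all 15 samples in 1 edgeR fit it was 0.0901. DESeq2 gave 9.06e-05. The 11 markers of monocytes and macrophages, which are rich in Ccr2, summed to 126 to 229 CPM in WT and 147 to 437 CPM in KO spleen. Of these 11 markers 10 had a positive log2 fold change in KO, and their part in the Ccr2 value was not tested. The 6 erythroid markers summed to 93.6 to 1888 CPM in WT and 41.8 to 106 CPM in KO spleen, and their part in the receptor values was not tested.

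The remaining inflammatory receptors did not pass the test in spleen. Cxcr6 had 2226, 1006, 1494 and 949 CPM in WT and 935, 883, 1162 and 739 CPM in KO (log2 fold change −0.60, SE 0.26, adjusted p = 0.223 in edgeR). WT replicates 1 and 3 stood above every KO sample, and the other WT samples lay within the KO range. Ccr1, a receptor of Ccl3 and Ccl5, was at 13.1, 6.73, 3.03 and 9.83 CPM in WT and 3.47, 6.61, 3.76 and 2.92 CPM in KO, with overlapping groups (log2 fold change −0.94, SE 0.40, adjusted p = 0.222).

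Cx3cr1, the receptor of fractalkine (Cx3cl1), had the opposite sign, as the only member besides Ccr4 with a higher mean in KO spleen. It had 48.4, 52.8, 41.5 and 35.7 CPM in WT and 105, 66.8, 61.2 and 43.7 CPM in KO. Of the KO samples 3 exceeded every WT sample and replicate 4 lay within the WT range. The log2 fold change was 0.64 (SE 0.22) with an adjusted p of 0.151 in edgeR and 0.0506 in DESeq2. Of the 11 monocyte and macrophage markers 10 had the same sign, 7 at an unadjusted p under 0.05 and 0 at an adjusted p under 0.05 in edgeR (7 called by DESeq2), and their part in this value was not tested.

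The homing and Th2-related receptors varied more among the WT samples than between genotypes in spleen. Ccr7 was at 29.8, 47.2, 29.4 and 98.3 CPM in WT and 50.0, 47.0, 18.5 and 29.1 CPM in KO (log2 fold change −0.49, SE 0.40, adjusted p = 0.533 in edgeR). WT replicate 4 alone lay above the KO range, and without it the log2 fold change was 0.035. Ccr8, a receptor of Ccl1 and in mouse of Ccl8, had a log2 fold change of −0.54 (SE 0.30, adjusted p = 0.334), from 18.1 to 57.6 CPM in WT and 17.8 to 29.3 CPM in KO. For Ccr4, the receptor of Ccl17 and Ccl22, it was 0.35 (SE 0.33, adjusted p = 0.591), from 13.0 to 47.5 CPM in WT and 26.0 to 48.0 CPM in KO. Cxcr4, the receptor of Cxcl12, stayed between 0.735 and 7.72 CPM in both groups (log2 fold change −0.89, SE 0.60, adjusted p = 0.438).

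**Figure D2:**
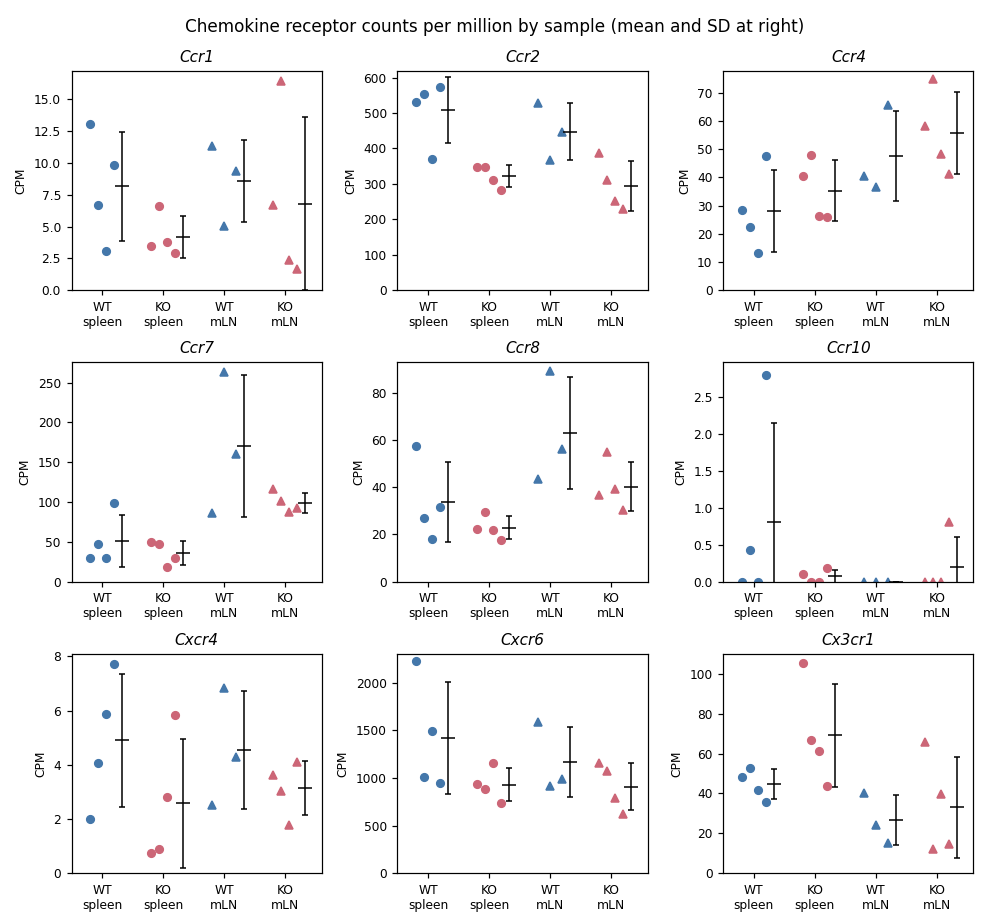
CPM (vertical axis, from 0) of the 9 receptors in the 15 samples, with 1 point per sample in order of replicate number and the mean with SD at the right of each group (SD bars are cut at 0). In spleen every KO sample of Ccr2 lies below every WT sample, Ccr7 and Ccr8 of KO are higher in every mLN than in every spleen sample, and Ccr10 is near 0 apart from WT spleen replicate 4.

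In mLN no receptor passed the test between genotypes (0 of 8 at an adjusted p under 0.05 in edgeR, beside 0.641% of the 14359 genes tested). At an unadjusted p under 0.05 there were 3 of 8, all lower in KO. The share of all genes at that unadjusted limit is not given here. DESeq2 called 1 of 8, Ccr2, and 561 genes in all, beside 92 in edgeR. Ccr2 was at 528, 367 and 445 CPM in WT and 387, 311, 251 and 229 CPM in KO. KO replicate 1 was higher than WT replicate 2, so the groups overlapped by these 2 samples. In no receptor were the groups apart in mLN (0 of 8 in either direction), as they were for 7.49% of genes with higher and 6.94% with lower KO samples. The log2 fold change of −0.61 (SE 0.18) was near that of spleen, with an adjusted p of 0.152 in edgeR and 0.0138 in DESeq2.

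Ccr7 had 86.5, 263 and 161 CPM in WT mLN and 116, 101, 87.3 and 92.8 CPM in KO mLN. The KO samples were close together and the WT samples spread around them, with WT replicate 1 below all of KO. The log2 fold change was −0.78 (SE 0.27, adjusted p = 0.212 in edgeR), and it turned on single WT samples, at −1.09 (adjusted p = 0.0436) without WT mLN replicate 1 and −0.33 (adjusted p = 0.594) without WT mLN replicate 2. Ccr8 had 43.5, 89.4 and 56.4 CPM in WT and 36.8, 54.8, 39.1 and 30.2 CPM in KO, with a log2 fold change of −0.66 (SE 0.24, adjusted p = 0.229). The KO sample with the highest Ccr8 exceeded the lowest WT sample, and without WT mLN replicate 2 the log2 fold change was −0.33.

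The 5 other receptors had smaller differences for their error in mLN. Log2 fold changes were −0.37 (SE 0.23) for Cxcr6, −0.35 (0.64) for Ccr1, −0.53 (0.41) for Cxcr4, 0.21 (0.24) for Ccr4 and 0.30 (0.54) for Cx3cr1, with adjusted p from 0.497 to 0.842 in edgeR. Ccr1 was spread widely in KO, from 1.69 CPM in replicate 4 to 16.4 CPM in replicate 2, and its log2 fold change was −1.26 without KO mLN replicate 2 and −0.022 without KO mLN replicate 4. Cx3cr1 was spread likewise, from 12.1 CPM in replicate 2 to 65.8 CPM in replicate 1, and without KO mLN replicate 1 its log2 fold change was −0.30.

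In both organs 6 of the 8 tested receptors had a negative and 2 a positive log2 fold change in KO. The median over the 8 was −0.57 in spleen and −0.45 in mLN, beside −0.0041 and −0.0038 over all genes tested. For 8 tested of the 10 other typical chemokine receptors below, the spleen median was −0.092, with 4 positive and 4 negative. For 7 tested in mLN it was 0.085, with 4 positive and 3 negative. The members and lists were chosen with earlier results of these data known, so these counts and medians are descriptions only. A difference in the genotype effect between spleen and mLN was tested in edgeR with an interaction term, fitted to all 15 samples. It was called for 0 of 8 receptors and for 0% of the 15438 genes, with 0 of 8 receptors and 4.22% of genes at an unadjusted p under 0.05 and 0 receptors called by DESeq2. For Ccr2 the interaction was 0.026 on the log2 scale (SE 0.24) and for Ccr7 −0.29 (SE 0.55), and the SE of the 8 receptors, 0.24 to 0.84, sets how small a difference could be seen.

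**Figure D3:**
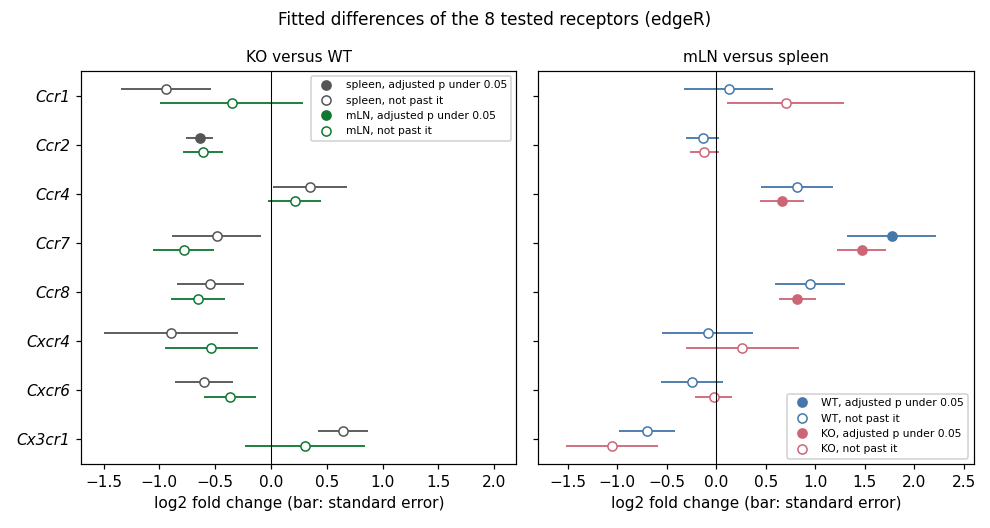
Log2 fold change (horizontal axis) of the 8 tested receptors from edgeR, with bars for 1 standard error and filled points for an adjusted p under 0.05. On the left KO is compared with WT in spleen (grey) and mLN (green), where Ccr2 in spleen is the filled point. On the right mLN is compared with spleen in WT (blue) and KO (red), where Ccr7 is filled in both genotypes and Ccr4 and Ccr8 in KO.

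The organs were compared within each genotype. Ccr7, which guides T cells into and within lymph nodes, was higher in mLN than in spleen T cells of both genotypes, and Ccr8 and Ccr4 were higher in mLN in KO T cells. Cx3cr1 had lower means in mLN of both genotypes and was called in some of the fits given below. Same-numbered samples of the organs deviated together in WT, so that values with the replicate number as a block are given beside the WT results. The 2 comparisons rest on different samples.

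In WT, Ccr7 rose from 29.8, 47.2, 29.4 and 98.3 CPM in spleen to 86.5, 263 and 161 CPM in mLN. The groups overlapped only by spleen replicate 4 and mLN replicate 1, and all 3 numbers with both organs were higher in mLN, by 1.63 to 5.58 times. A log2 fold change of 1.77 resulted (SE 0.45, adjusted p = 0.0234 in edgeR), and with the replicate block 1.61 (SE 0.26, adjusted p = 0.0017). In the fit without the block Ccr7 was 1 of 8 receptors called higher, beside 9.7% of the 14515 genes tested, and 0 of 8 were called lower (10.8% of genes, 20.5% in either direction). With the block 3 of 8 receptors were called, and 4351 genes in all beside 2980 without it. In 0 of 8 receptors were the groups apart, beside 13.3% of genes with higher and 18.2% with lower mLN samples. Without the block the adjusted p of Ccr7 was 0.0648 without WT spleen replicate 1, 0.0652 without WT spleen replicate 2, 0.0904 without WT mLN replicate 2 and 0.0535 without WT mLN replicate 4.

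Ccr4 and Cx3cr1 missed the threshold in WT without the replicate block and passed with it. Ccr4 had 28.6, 22.5, 13.0 and 47.5 CPM in WT spleen and 40.3, 36.7 and 65.8 CPM in WT mLN. Each number was higher in mLN, by 1.38 to 1.63 times, while the groups overlapped because replicate 4 was high in both organs. For Ccr4 this gave a log2 fold change of 0.82 (SE 0.37, adjusted p = 0.148 in edgeR), and 0.60 (SE 0.11, adjusted p = 0.00279) with the block. Without WT spleen replicate 4 and without the block it was 1.19 (adjusted p = 0.0263), and without any other 1 sample 0.51 to 0.98 (adjusted p from 0.149 to 0.426).

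Cx3cr1 was at 40.2, 24.3 and 15.2 CPM in WT mLN, below the same number in spleen for 3 of 3. Its log2 fold change was −0.70 (SE 0.28, adjusted p = 0.110 in edgeR), and −0.80 (SE 0.17, adjusted p = 0.00801) with the block. DESeq2 without the block gave an adjusted p of 0.0491 for Cx3cr1, and edgeR gave 0.0143 (log2 fold change −1.15) without WT mLN replicate 1 and 0.0902 to 0.250 without any other 1 sample. Ccr8 missed the threshold either way, with 0.94 (SE 0.36, adjusted p = 0.0905) and 0.76 with the block (SE 0.31, adjusted p = 0.0934). Its WT spleen replicate 1, at 57.6 CPM, stood above 2 of the 3 mLN samples, and without that sample the log2 fold change was 1.34 (adjusted p = 0.0189 in edgeR). Without WT mLN replicate 2, the highest Ccr8 sample, it was 0.62 (adjusted p = 0.301).

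In KO, 3 of 8 receptors were called higher in mLN, beside 11.4% of the 14240 genes tested, and 0 of 8 lower (13.9% of genes, 25.3% in either direction). Ccr7 rose from 50.0, 47.0, 18.5 and 29.1 CPM in spleen to 116, 101, 87.3 and 92.8 CPM in mLN. The groups were apart, with the lowest mLN sample at 1.75 times the highest spleen sample. On the log2 scale mLN was higher by 1.47 (SE 0.24, adjusted p = 0.00128 in edgeR), and Ccr7 passed in each of the 8 fits with 1 sample left out.

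Ccr8 rose in KO from 22.5, 29.3, 21.7 and 17.8 CPM to 36.8, 54.8, 39.1 and 30.2 CPM. These groups were apart as well, though narrowly, and each number was higher in mLN by 1.64 to 1.87 times. Its log2 fold change of 0.82 (SE 0.19, adjusted p = 0.0083 in edgeR) passed in each of the 8 fits with 1 sample left out. Ccr7 and Ccr8 were the 2 of 8 receptors whose KO mLN samples all lay above the KO spleen samples, which held for 13.3% of all genes, and in 0 of 8 they all lay below (15.3% of genes).

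Ccr4 had 40.5, 48.0, 26.4 and 26.0 CPM in KO spleen and 58.1, 74.7, 48.5 and 41.0 CPM in KO mLN. The groups overlapped, while each number was higher in mLN by 1.43 to 1.83 times. The difference was 0.67 on the log2 scale (SE 0.22, adjusted p = 0.0446 in edgeR). Its adjusted p rose to 0.0649, 0.125 and 0.118 without KO spleen replicates 1, 3 and 4, and to 0.0862 and 0.117 without KO mLN replicates 1 and 2. It was 0.053 with library size alone and 0.120 with all 15 samples in 1 fit.

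Cx3cr1 was lower in mLN than in spleen for 4 of 4 KO numbers, from 105, 66.8, 61.2 and 43.7 CPM to 65.8, 12.1, 39.5 and 14.4 CPM. The groups overlapped, with mLN replicate 1 high (log2 fold change −1.05, SE 0.46, adjusted p = 0.120 in edgeR). Without KO mLN replicate 1 it was −1.65 with an adjusted p of 0.0155, and without any other 1 sample −1.21 to −0.77 with adjusted p from 0.113 to 0.296. With the replicate block it was −1.28 (SE 0.26, adjusted p = 0.00617 in edgeR). Monocyte and macrophage markers, a cell type rich in Cx3cr1, summed to 147 to 437 CPM in KO spleen and 87.8 to 111 CPM in KO mLN, with 7 of the 10 tested markers called lower in mLN, and their part in this value was not tested.

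The effector receptors Ccr2 and Cxcr6 did not pass the test between organs in either genotype. Log2 fold changes of mLN against spleen for Ccr2 were −0.14 (SE 0.16, adjusted p = 0.595 in edgeR) in WT and −0.12 (0.15, adjusted p = 0.585) in KO. For Cxcr6 they were −0.25 (0.31, adjusted p = 0.623) and −0.026 (0.19, adjusted p = 0.940). For Ccr1 and Cxcr4 the SE was 0.45 to 0.59, and log2 fold changes ran from −0.086 to 0.70.

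Other cell markers also differed between the organs. Neutrophil markers summed to 124 to 475 CPM in spleen and 16.5 to 62.5 CPM in mLN, with 4 of the 5 tested markers called lower in mLN in each genotype and Mpo at 0 to 772 counts. Of the 11 T cell markers 2 were called higher in WT mLN, and 6 were called higher and 1 lower in KO mLN. In each genotype 9 had a positive and 2 a negative log2 fold change, with medians of 0.22 in WT and 0.28 in KO. The 2 CD8 markers summed to 2.56 to 5.11 CPM in WT spleen and 7.18 to 11.6 CPM in WT mLN, and to 1.61 to 4.34 CPM in KO spleen and 18.9 to 28.2 CPM in KO mLN, where Cd8a was called higher in edgeR (log2 fold change 4.43, adjusted p = 3.18e-05) and DESeq2 called both. Pax5, a B cell factor at 0 to 48 counts, was also called higher in KO mLN than in KO spleen (1.66, adjusted p = 0.0325 in edgeR) and in KO mLN than in WT mLN (4.4, adjusted p = 0.0372). The part of the markers in the receptor values was not tested.

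Across the 15 samples the receptors did not vary as 1 block. On log2 CPM, Pearson's r over 15 samples was highest between Ccr7 and Ccr8 (0.74), and it was 0.28 once each sample was centred on its group mean. Ccr1 and Ccr2, which lie 133 kb apart, had 0.72 and, centred, 0.76. Centred values also gave 0.71 for Ccr1 and Ccr4 and 0.63 for Ccr2 and Ccr4, a pair at −0.093 without centring. Ccr7 and Cxcr6 varied in opposite directions within groups, at −0.60 centred and −0.27 over all samples. The samples share organs, genotypes and library preparation, so these values are descriptions.

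**Figure D4:**
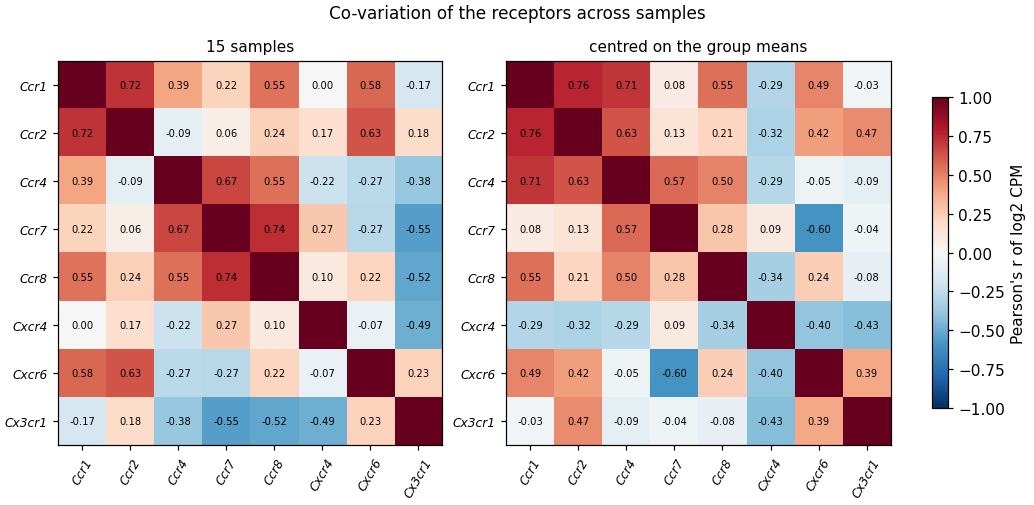
Pearson's r of log2 CPM between pairs of the 8 tested receptors over 15 samples (left) and after centring on the group means (right), on a colour scale from −1 to 1. Ccr1, Ccr2 and Ccr4 vary together on the right, with r from 0.63 to 0.76, and Ccr7 with Cxcr6 has −0.60.

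The genes most like each receptor over the 15 samples had r between 0.76 and 0.95. Ccr7 was closest to Ighm (0.95), Dpp4 (0.95) and Nt5e (0.94), and Ccr2 to F2rl1 (0.94), Pim1 (0.93) and Plekhm3 (0.92). Ccr4 was closest to Adk (0.92), Stk38 (0.92) and Fam69a (0.92), and Ccr8 to Ntmt1 (0.90), Pkp3 (0.89) and Klk8 (0.89). Cxcr6 was closest to Rbpj (0.85), Clic4 (0.82) and Gm27166 (0.80), and Cx3cr1 to Tonsl (0.90), Uchl4 (0.90) and Zc3h11a (0.89). For Ccr1 they were Vdr (0.88), Epas1 (0.86) and St6galnac1 (0.86), and for Cxcr4 Cfl2 (0.80), Pcgf2 (0.80) and Trav14d-3-dv8 (0.76). They were picked as the highest of 15438 genes, and after centring on group means r was 0.70 to 0.92.

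Of 10 other typical chemokine receptors, 8 were tested in spleen and 1 was called lower in KO, Ccr9, which guides T cells to the small intestine. Ccr9 was at 33.2, 26.5, 13.3 and 37.5 CPM in WT spleen and 7.77, 11.7, 11.7 and 9.84 CPM in KO spleen. The groups did not overlap, and the log2 fold change was −1.40 (SE 0.27, adjusted p = 0.0444 in edgeR). Without any 1 sample other than WT spleen replicate 3 the adjusted p was 0.0786 to 0.121, and without that sample 0.00319. In mLN 1 of 7 tested was called higher in KO, Cxcr5, which guides T cells into B cell follicles, with 25.1, 38.1 and 28.2 CPM in WT and 65.8, 70.9, 113 and 109 CPM in KO. Every KO sample of Cxcr5 was above every WT sample (log2 fold change 1.55, SE 0.22, adjusted p = 0.0291 in edgeR). Its adjusted p was 0.0576 and 0.128 without WT mLN replicates 2 and 4, and 0.0631 and 0.0562 without KO mLN replicates 3 and 4. In spleen Cxcr5 was at 18.6 to 39.1 CPM in WT and 30.4 to 90.4 CPM in KO, and it was not called in edgeR.

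Ccr9 was also higher in mLN than in spleen, by log2 fold changes of 1.62 in WT (SE 0.29, adjusted p = 0.00519 in edgeR) and 2.48 in KO (SE 0.36, adjusted p = 0.000546). Cxcr3, a receptor of Th1 cells, was higher in KO mLN than in KO spleen, at 738 to 797 against 541 to 595 CPM (log2 fold change 0.44, SE 0.06, adjusted p = 0.000327). In WT the groups of Cxcr3 were apart as well, at 674 to 765 against 476 to 636 CPM, and it was not called in edgeR. Lower in mLN were Cxcr2, a neutrophil receptor, in WT (log2 fold change −3.46, SE 0.85, adjusted p = 0.0205) and Xcr1, a dendritic cell receptor, in KO (−0.54, SE 0.18, adjusted p = 0.041). The adjusted p of Cxcr2 was 0.053 without WT mLN replicate 1 and 0.0511 without WT mLN replicate 4, and that of Xcr1 was 0.0507 to 0.126 without any 1 sample other than KO mLN replicate 3. Cxcr2 fell beside the neutrophil markers above, and their part was not tested. Of 7 atypical receptors 2 were tested and 0 called in any comparison by edgeR or DESeq2, with 1 at an unadjusted p under 0.05 in spleen between genotypes and 1 in WT between organs.

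Ccl5, a product of effector T cells and a ligand of Ccr1, was the most abundant of the 19 ligands listed, at 1635 ± 546 CPM in WT spleen and 1906 ± 145 CPM in KO spleen (SD, n = 4 each), 1971 ± 275 CPM in WT mLN (SD, n = 3) and 2294 ± 564 CPM in KO mLN (SD, n = 4). It passed in none of the comparisons of genotype or organ, with adjusted p from 0.206 to 0.610 in edgeR. Ccl4 followed at group means of 70.5 to 166 CPM and Ccl3 at 15.3 to 43.1 CPM, and the stromal ligands Ccl19, Ccl21a and Cxcl12 had at most 1, 0 and 17 counts. Of the 19, 8 were tested in spleen and 10 in mLN and 0 were called between genotypes by edgeR, with 1 in each organ at an unadjusted p under 0.05 and 0 and 1 called by DESeq2. Between the organs 2 of 10 were called higher in WT mLN, the Ccr4 ligand Ccl22 and the mouse Ccr8 ligand Ccl8. Ccl22, a product of dendritic cells and macrophages, had 1, 7, 2 and 1 counts in WT spleen and 134, 120 and 47 counts in WT mLN. In KO it had 3, 2, 6 and 1 counts in spleen and 18, 59, 95 and 34 in mLN, so that every mLN sample exceeded every spleen sample in both genotypes. The log2 fold changes were 5.08 (SE 0.59, adjusted p = 0.000719 in edgeR) in WT and 4.04 (SE 0.65, adjusted p = 0.00106) in KO.

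Ccl8 had at most 2 counts in WT spleen and 50, 34 and 24 counts in WT mLN, at least 11.3-fold higher when the spleen is set to the floor of 3 counts per library (adjusted p = 0.000797 in edgeR). In KO it had at most 3 counts in spleen and 17, 57, 64 and 5 counts in mLN and was not tested, since it did not pass the filter. Dendritic cell markers, 7 genes, summed to 27.1 to 36.4 CPM in WT spleen against 20.4 to 28.5 CPM in WT mLN, and to 27.4 to 34.1 against 30.3 to 46.3 CPM in KO, and their part in the ligand values was not tested. In KO 2 of 9 tested ligands were called lower in mLN, Ccl9 (log2 fold change −2.66, SE 0.71, adjusted p = 0.0179) and Ccl3, a ligand of Ccr1 (−1.05, SE 0.32, adjusted p = 0.0332). Without KO spleen replicate 3 these were at 0.0636 for Ccl9 and 0.0964 for Ccl3, and Ccl3 was at 0.0583 to 0.0716 without KO spleen replicate 2 or 4 or KO mLN replicate 2 or 4, as adjusted p in edgeR.

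**Figure D5:**
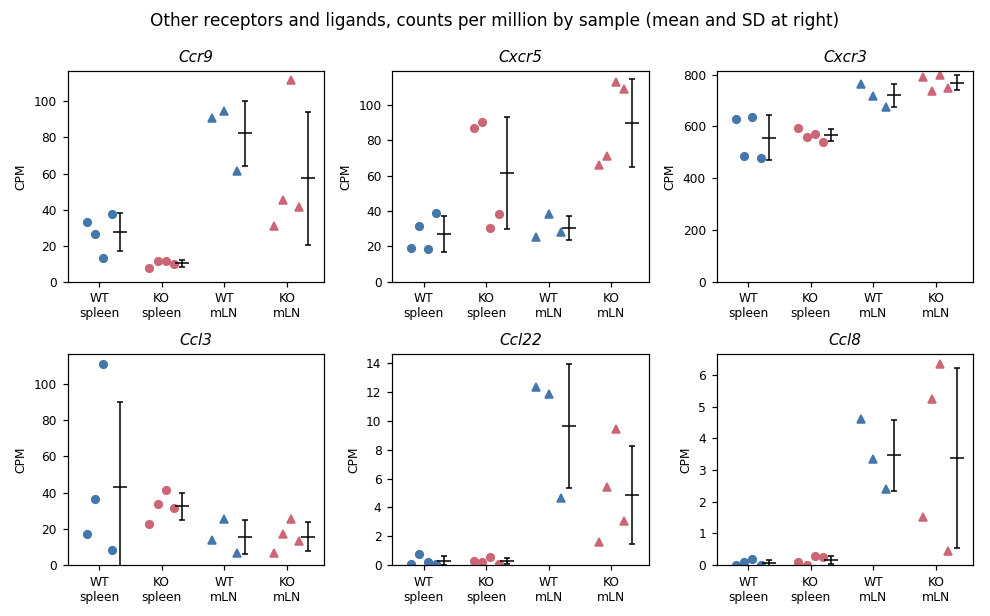
CPM (vertical axis, from 0) of the receptors Ccr9, Cxcr5 and Cxcr3 and the ligands Ccl3, Ccl22 and Ccl8, with 1 point per sample and the mean with SD at the right of each group (SD bars are cut at 0). Ccr9 is lowest in KO spleen (7.77 to 11.7), Cxcr5 of KO mLN (65.8 to 113) lies above WT mLN, and Ccl22 and Ccl8 are near 0 in every spleen sample.

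A list of 40 genes that carry or end the receptor signal was taken as well. Of 39 tested in spleen 1 was called between genotypes, Rgs14, a regulator of G protein signalling (log2 fold change 0.47 in KO, SE 0.08, adjusted p = 0.037 in edgeR), and of 38 tested in mLN 0 were called, with 7 at an unadjusted p under 0.05 and 2 called by DESeq2. The adjusted p of Rgs14 was 0.0585 to 0.108 without WT spleen replicate 1 or 4 or KO spleen replicate 2, 3 or 4. In WT 6 of 38 were higher and 10 lower in mLN than in spleen, and in KO 6 of 39 were higher and 13 lower, beside the shares of all genes given above. The 3 higher ones with the smallest p in WT were the GTPases Rac1 (0.44) and Rap1b (0.47) and the regulator Rgs1 (1.13), and in KO Rgs10 (1.09), Rhoh (0.45) and Rac1 (0.35), as log2 fold changes. The 3 lower ones were Plcb3, a phospholipase (−1.16), Apbb1ip, an activator of integrins (−0.62), and the G protein subunit Gnb2 (−0.58) in WT, and Apbb1ip (−0.81), Gnb2 (−0.70) and the kinase Ptk2b (−0.60) in KO.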

How the data were processed

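mRNA of CD4+ T cells from 15 samples was sequenced as single-end reads. Per the labels and the methods of the study, the authors aligned reads with STAR 2.6.1a to GRCm38 with GENCODE M23, counted reads per gene, and deposited raw counts per gene without normalization; the submitters' notes also name bcl2fastq 2.19.1.403, RSEM and DESeq2 1.22.2. The counted strand is not given in the sources used here. Of uniquely aligned reads 58.4% to 63.4% lay on no gene and stayed out of library sizes. Symbols and positions came from GENCODE M21 of the same build (55240 of 55421 genes matched).

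Samples were grouped by the labelled genotype and organ. From the deposited counts, genes passing edgeR's filter were tested with edgeR 4.0.16 (TMM, quasi-likelihood test, R 4.3.3) for each comparison separately, with Benjamini-Hochberg adjustment over all genes tested and a limit of 0.05. DESeq2 1.42.0 was an alternative, beside RLE normalization, library size alone, no filter, a minimum of 10 counts per sample, 1 fit over all samples, a log2 fold limit of 1, a replicate block and each sample left out. Log2 CPM used a prior count of 2. Procedures were tested on simulated data. Other steps used Python 3.11.15.

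The members and lists were chosen with earlier results of these data known. Named are all members, Prkaa1, at most 3 called genes per list, direction and comparison, and the 3 genes most like each member. A planned run of neighbouring receptor genes on chromosome 9 is not reported here. Samples with the same number correlated in their deviations from the group means between WT spleen and WT mLN in 3 of 3 numbers (r 0.24 to 0.29). Values with the number as a block are therefore given beside the main WT organ fit, which has no block. Between KO spleen and KO mLN r was 0.026 to 0.26. The labels do not say whether a number marks a mouse, though the study took both organs from each mouse. The study describes its replicates as mice of 1 experiment, so p-values measure the spread between these mice. Reads carry no molecular identifiers.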

Additional observations from a re-analysis of the deposited data

Results flagged for a closer look

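In groups of 4 samples the highest or lowest sample was checked for a gap to its neighbour, relative to the range of the group, above the critical value of Dixon for 4 samples, over 27 groups of a receptor, and chance alone gives about 1 in 20. There were 2 such samples, both for Ccr10. WT spleen replicate 4 had 2.81 CPM (28 counts) beside 0 to 0.427 CPM in the other WT spleen samples, and KO mLN replicate 4 had 0.803 CPM (9 counts) beside 0 in the other 3. With these 3 at 0, any read in the remaining sample would have been flagged. The rate of 1 in 20 therefore does not apply to Ccr10, with most samples at the floor. Groups of 3 samples were not checked.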

How the results depend on the processing

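Of 1032 values of single genes under the alternatives, 899 kept their direction and their side of the threshold in edgeR or DESeq2, 73 no longer passed, 24 newly passed and 36 changed sign. The cause was not tested.

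Between genotypes in spleen the receptors called (1 of 8) were 0 with a log2 fold limit of 1, 0 with all 15 samples in 1 fit, 0 with the replicate block and 7 without the filter, and 0 to 1 with 1 sample left out. In mLN (0 of 8) they were 4 without the filter, 1 with DESeq2 and 0 to 1 with 1 sample left out. Between organs in WT (1 of 8) they were 5 without the filter, 2 with DESeq2, 2 with all 15 samples, 3 with the replicate block and 0 to 2 with 1 sample left out, and in KO (3 of 8) they were 1 with the fold limit, 2 with library size alone, 2 with all 15 samples and 2 to 3 with 1 sample left out. The interaction (0 of 8) gave 1 without the filter.

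Over all genes the 185 calls between genotypes in spleen became 64 with the fold limit, 1422 without the filter, 799 with DESeq2, 85 with all 15 samples, 17 with the replicate block and 12 to 324 with 1 sample left out. The 92 calls in mLN became 47, 913, 561, 500, 1 and 4 to 117 under the same settings. Between organs the fold limit left 723 of 2980 calls in WT and 763 of 3602 in KO, and the WT count was 1816 to 2780 with 1 sample left out. The interaction (0 genes) gave 112 without the filter, 2 with DESeq2 and 3 with the replicate block.

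Log2 values that changed sign with the replicate block were Cx3cr1 between genotypes in mLN (−0.10), Ccr1 (−0.17) and Cxcr4 (0.094) between organs in WT, and the interaction of Ccr4 (0.081) and Ccr8 (0.060). With 1 sample left out, the genotype value was −0.67 to 0.035 for Ccr7 in spleen and −0.30 to 0.74 for Cx3cr1 in mLN. Between organs the range was −0.14 to 0.45 for Ccr1, −0.49 to 0.21 for Cxcr4 and −0.55 to 0.057 for Cxcr6 in WT, and −0.20 to 1.03, −0.037 to 1.07 and −0.17 to 0.13 for the same receptors in KO. For the interaction it was −0.32 to 0.91 for Ccr1, −0.15 to 0.16 for Ccr2, −0.52 to 0.16 for Ccr4, −0.82 to 0.14 for Ccr7, −0.51 to 0.20 for Ccr8, −0.078 to 0.52 for Cxcr6 and −0.96 to 0.088 for Cx3cr1.

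Same-numbered samples of KO spleen and KO mLN correlated at 0.026 to 0.26, not all above 0.1, and those of WT and KO at −0.21 to 0.15 in spleen and −0.053 to 0.0034 in mLN, so by the correlations these were not taken as pairs; for the organs of KO a shared mouse was not settled by the labels. With the block 4 receptors were called between organs in KO, with Cx3cr1 at −1.28 (adjusted p = 0.00617 in edgeR), and Ccr2 between genotypes in spleen had an adjusted p of 0.1008. Counting depth limits Ccr10, while Ccr1 and Cxcr4 had low counts of 19 to 179 and 7 to 77 per sample. Groups of 3 or 4 samples limit all comparisons.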
